A study of Zea mays with 18 samples.

Results

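Of the 43484 maize gene models with Zm00001d identifiers in the deposited table, 33 stood at 400 RPKM or more in all 6 columns, and these 33 are described here as the gene models abundant in every organ. RPKM is a read count scaled to the length of the gene model and to the size of the library, so that levels can be compared between gene models. The members were chosen by these same values, so their level in every column is a property of the choice and is given as a description, with no test. The table holds 1 RPKM value for each organ and treatment, so no value below has a replicate error, no difference could be tested, and the depth behind a value is unknown. All log2 differences are on the log2(RPKM + 1) scale. Where an organ is given with a value in parentheses, the value before it is that of control and the one inside that of the treated plants.

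The plants were seedlings of the inbred line B73, germinated in the dark for 3 days and then moved to nutrient solution. The treated groups received 1 nM epibrassinolide (EBL), a brassinosteroid hormone, for 48 h, and the others were controls. From both, RNA was taken from primary roots, from shoots (the coleoptile, stem and apex together) and from the 1st leaf. Each of these 6 groups had 3 biological replicates, which makes 18 samples. The summed RPKM of the gene models ranged from 856063 in control shoots to 1256993 in EBL leaves, and the main comparisons are therefore given both as deposited and with the columns scaled to the same sum of the gene models ("sum-scaled").

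In plants, the transcripts that are abundant in every organ mostly serve tasks that all living cells share: making ribosomes and translating messenger RNA, packing DNA, breaking down sugars, turning over proteins through ubiquitin, building the cytoskeleton and handling reactive oxygen. Genes of this kind are often used as references in expression assays, where their level is assumed to differ little between samples. Brassinosteroids act through a receptor kinase at the cell surface and a family of transcription factors, and promote cell elongation. None of the 33 identifiers is paired with a name or a function in the table or in the reference used here, so no member is assigned to any of these tasks, and the identity of each organ could not be checked against its marker genes.

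The threshold of 400 RPKM in 6 columns kept few of the abundant gene models. In all, 769 gene models reached 400 RPKM in at least 1 column, and 150 of them did so in a single column. Both columns of an organ were at or above the threshold for 324 gene models in roots, 309 in shoots and 278 in leaves, so that the 33 made up 10.2%, 10.7% and 11.9% of these lists. The largest overlap of organs outside the 33 was that of roots with shoots, with 186 gene models, followed by 49 shared by shoots and leaves and 5 shared by roots and leaves. A further 23 gene models reached the threshold in 5 columns, and control leaves were the missing column for 17 of them. The values just inside and just outside the threshold were close. By their lowest column, the last members were Zm00001d023376 at 411 RPKM and Zm00001d037684 at 408 RPKM, both in control shoots, and the next gene models were Zm00001d031956 at 392 RPKM and Zm00001d021421 at 391 RPKM, both in control leaves.

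The 33 gene models together took a larger share of the gene model RPKM in roots and shoots than in leaves. In control they held 6.02% of the root total, 6.03% of the shoot total and 3.11% of the leaf total, and with EBL 5.48%, 5.93% and 2.95% in the same order. A share does not depend on the factor by which a column is multiplied. Without Zm00001d035684, the most abundant member, the shares were 5.35%, 4.54% and 2.80% in control and 5.23%, 4.61% and 2.76% in EBL. The median level of the 33 was 1489 RPKM in roots (1356 with EBL), 1195 in shoots (1406) and 781 in leaves (909). In whole organs, fewer cells of a type and less RNA per cell cannot be told apart in such values.

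**Figure D1:**
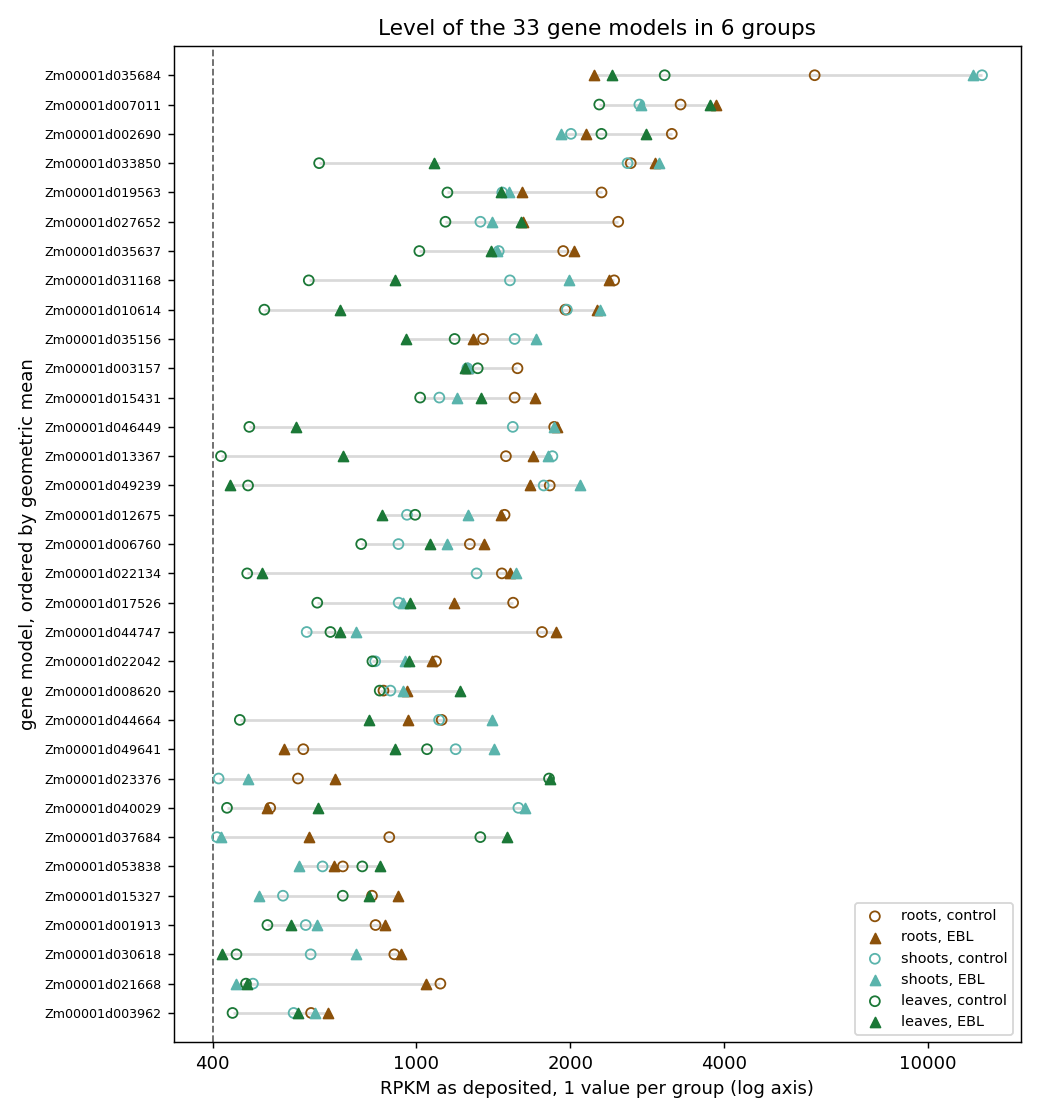
RPKM as deposited (log axis) of each of the 33 gene models, ordered by geometric mean, in control (open circles) and EBL (filled triangles) columns of roots, shoots and leaves; the dashed line is the 400 RPKM threshold and the grey bars join the lowest and the highest column. Control leaves are the lowest column for 19 of the 33 gene models, a count not made over all gene models.

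Control leaves held the lowest of the 6 values for 19 of the 33 members and EBL leaves for a further 5. The highest value lay in a root column for 19 members, 9 in control and 10 in EBL, and in a shoot column for 10. After sum-scaling a leaf column was lowest for 27 members, 15 in control and 12 in EBL, and a root column was highest for 24. These counts were not made over all gene models, so they are not a trait of the members. Of all gene models compared as deposited, 69.5% were lower in control leaves than in control roots and 65.2% lower than in control shoots.

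The rank of a gene model within its own column does not depend on the scaling either, and it gave the same order of organs. Among all gene models, the 33 had a median rank of 28 in roots (29 with EBL), 36 in shoots (33) and 168 in leaves (167). Members made up 26 of the 100 most abundant gene models of control roots, 24 of those of control shoots and 6 of those of control leaves. The best placed member in leaves stood at rank 44 in control and 56 in EBL, whereas a member held rank 1 in each of the 4 root and shoot columns. A lower rank in leaves means that more other gene models stood above the members there, and does not by itself say that their own transcripts were fewer.

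**Figure D2:**
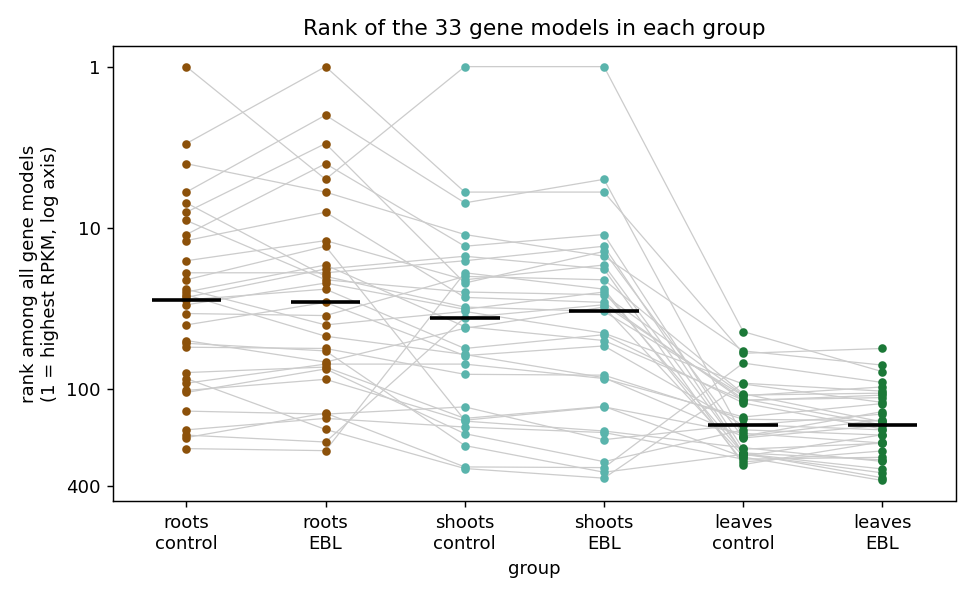
Rank of each of the 33 gene models among all gene models in each column (1 is the highest RPKM, log axis reversed), with grey lines joining the same gene model and black bars at the median. The black bars lie far lower in leaves (rank 168 in control, 167 with EBL) than in roots (28 and 29) and shoots (36 and 33).

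The most abundant member, Zm00001d035684, was also the most variable. It stood at 6011 RPKM in roots (2223 with EBL), 12767 in shoots (12244) and 3061 in leaves (2417). It was the most abundant of all gene models in control roots and in both shoot columns, was 5th in EBL roots, and its highest column was 5.74-fold above its lowest. Set against the median of the other 32 members in the same column, it was 11.1-fold higher in control shoots, 4.06-fold in control roots and 1.68-fold in EBL roots.

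The next members by geometric mean varied less. Zm00001d007011 stood at 3288 RPKM in roots (3858 with EBL), 2731 in shoots (2747) and 2280.0 in leaves (3754). It was the most abundant gene model of EBL roots. Zm00001d002690 stood at 3160.1 RPKM in roots (2145 with EBL), 2007 in shoots (1915) and 2302 in leaves (2813). With Zm00001d035684, these were the 3 highest members in control leaves.

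Zm00001d035637 stood at 1938 RPKM in roots (2037 with EBL), 1450.4 in shoots (1436) and 1015 in leaves (1404). Together with Zm00001d019563, Zm00001d027652, Zm00001d031168, Zm00001d010614 and Zm00001d035156, all described further on, and Zm00001d033850, it completes the 10 members with the highest geometric mean. Members of the middle and lower part of the list were mostly also higher in roots than in leaves, such as Zm00001d015431, which stood at 1558 RPKM in roots (1705 with EBL), 1110.1 in shoots (1204) and 1018 in leaves (1339.8), and Zm00001d006760, at 1273 RPKM in roots (1356 with EBL), 923 in shoots (1151) and 781 in leaves (1066). The least abundant member by geometric mean was Zm00001d003962, at 623 RPKM in roots (673 with EBL), 576 in shoots (633) and 438 in leaves (588). These last 3 were picked out after their values were seen.

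Over the 6 columns the log2 range between the highest and the lowest value had a median of 1.16 among the 33 and ran from 0.34 to 2.52. The range stayed under 2-fold for 13 members and reached 4-fold for 6, where 16.6% of the 18552 gene models with at least 1 RPKM in all columns stayed under 2-fold and 7418 of them reached 4-fold. After sum-scaling the median was 1.29, with 10 members under 2-fold and 9 at 4-fold or more. For those 18552 gene models the median was 1.74 as deposited and 2.03 sum-scaled, and after sum-scaling 1722 stayed under 2-fold and 9508 reached 4-fold. A floor of 400 RPKM in every column limits this range by construction, so the difference from all gene models is not a finding about the members.

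The members with the narrowest range as deposited were Zm00001d003157 and Zm00001d022042. Zm00001d003157 stood at 1578 RPKM in roots (1258 with EBL), 1259 in shoots (1264) and 1319 in leaves (1245), a 1.27-fold range. Zm00001d022042 stood at 1094 RPKM in roots (1075 with EBL), 832 in shoots (953) and 821 in leaves (969.5), a 1.33-fold range. Sum-scaling widened these log2 ranges from 0.34 to 0.83 and from 0.41 to 0.66. With that scaling the narrowest members were Zm00001d053838 and Zm00001d008620, at log2 ranges of 0.33 and 0.36, against 0.52 for both as deposited. Which member looked most even thus depended on the scaling. These 2 were picked out after their values were seen.

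The organs were then compared in the control columns. As deposited, 29 of the 33 members were lower in leaves than in roots, with a median log2 difference of -0.70, where 69.5% of all gene models compared were lower. Against shoots, 25 members were lower in leaves, with a median of -0.26 and a background of 65.2%. Shoots were lower than roots for 26 members, with a median of -0.39 and a background of 54.8%. Sum-scaling deepened the leaf differences, to medians of -0.87 against roots and -0.49 against shoots, and gave -0.33 for shoots against roots. Under median-ratio scaling, which sets the middle of all gene models equal, the direction turned for leaves, with medians of 0.06 against roots and 0.40 against shoots, while shoots against roots stayed at -0.29.

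The whole table was lower in leaves as deposited. The median of all gene models compared was -0.65 for leaves against roots and -0.46 for leaves against shoots, as deposited, and sum-scaling moved these medians by -0.13 and -0.18. Relative to the median of all gene models, the members stood at -0.05 for leaves against roots and 0.20 for leaves against shoots as deposited, and at -0.08 and 0.15 after sum-scaling. Set against the gene models with a mean of at least 100 RPKM in the columns compared, both signs turned, to 0.09 for leaves against roots and, under either of these scalings, -0.16 for leaves against shoots. For shoots against roots the median of all gene models was -0.07, and the members stood 0.33 below it as deposited.

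By the count of members at least 2-fold apart, 14 of 33 were lower in leaves than in roots and 1 was higher, where 37.1% and 15.8% of all gene models compared passed the same fold. Between leaves and shoots 10 members were at least 2-fold lower in leaves and 2 at least 2-fold higher, where 30.3% and 14.7% of all gene models passed. Between shoots and roots 3 members were at least 2-fold lower in shoots and 2 at least 2-fold higher, against 14.5% and 11.9%. The count at 4-fold depended on the scaling. As deposited 1 member was that much lower in leaves than in roots and 0 higher (12.9% and 8.98% of all gene models), against 6 lower and 0 higher after sum-scaling (15.0% and 8.39%) and 0 lower and 1 higher with median-ratio scaling (6.87% and 12.4%). Between leaves and shoots 3 were lower and 1 higher in leaves as deposited (9.78% and 5.70%), 6 and 0 after sum-scaling (12.4% and 4.68%) and 0 and 2 with median-ratio scaling (5.37% and 9.66%). In either direction as deposited, 45.5% of the members were 2-fold apart between leaves and roots and 36.4% between leaves and shoots, and 3.03% and 12.1% were 4-fold apart. The rule used these columns, so the counts describe the members and are not evidence that they differ from other gene models.

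**Figure D3:**
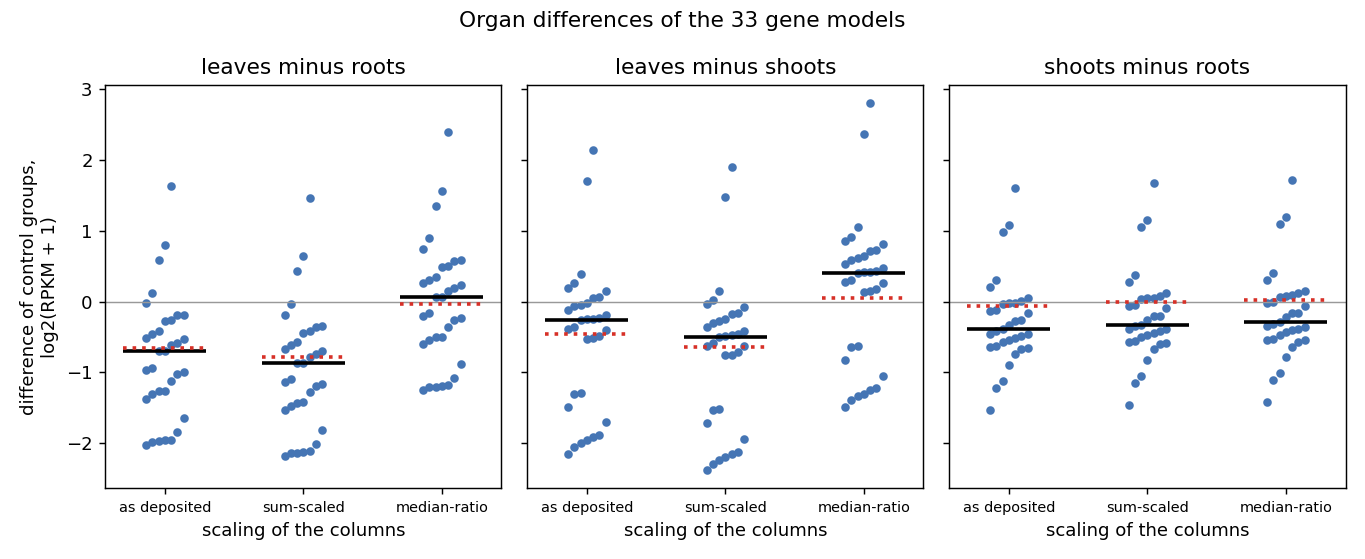
Difference between control columns of 2 organs, in log2(RPKM + 1), for each of the 33 gene models under 3 scalings; black bars are the median of the 33 and dotted red bars the median of all gene models compared. The leaf medians lie below 0 as deposited (-0.70 against roots and -0.26 against shoots) and sum-scaled, and above 0 with median-ratio scaling (0.06 and 0.40).

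The members showed a few organ patterns, with 2-fold as the limit in the control columns. In 15 of 33 every pair of organs was within 2-fold, as in 34.2% of all gene models compared. The largest pattern among the rest was that of 8 members at least 2-fold lower in leaves than in both other organs, and it grew to 9 after sum-scaling and shrank to 5 with median-ratio scaling. Of all gene models, 23.9% had this pattern as deposited, 29.2% after sum-scaling and 11.7% with median-ratio scaling. As deposited and after sum-scaling, the members thus had this pattern about as often as all gene models. The 5 that passed under all 3 scalings were Zm00001d010614, Zm00001d013367, Zm00001d033850, Zm00001d046449 and Zm00001d049239, a set taken whole after the values were seen. In the EBL columns as deposited 7 of the 33 members were leaf-low, where 27.2% of all gene models were, and these 7 were among the 8 of the control columns. With EBL only Zm00001d049239 was leaf-low under all 3 scalings. The share of all gene models leaf-low under all 3 scalings was not computed in either treatment. The counts under all 3 thus cannot be read as high or low.

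Most of the leaf-low members differed far less between roots and shoots than from leaves. Zm00001d033850 stood at 2627 RPKM in roots (2935 with EBL), 2589 in shoots (2986) and 646 in leaves (1083). Zm00001d010614 stood at 1957 RPKM in roots (2253 with EBL), 1971 in shoots (2283) and 505 in leaves (708). In both, the root and shoot values nearly coincide within a treatment and the leaf values lie far below.

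Zm00001d013367 stood at 1498 RPKM in roots (1693 with EBL), 1847 in shoots (1807) and 415 in leaves (721). Zm00001d049239, the member with the second widest range, stood at 1825 RPKM in roots (1669.9 with EBL), 1776 in shoots (2094) and 469 in leaves (433). Zm00001d031168, which was also leaf-low as deposited, stood at 2438 RPKM in roots (2385 with EBL), 1525 in shoots (1985) and 617 in leaves (909). Zm00001d022134, picked out after its values were seen, stood at 1471 RPKM in roots (1524 with EBL), 1313 in shoots (1571) and 468 in leaves (499). Across all 8, the control leaf values ran from 415 to 646 RPKM and the control root values from 1122 to 2627. The 8 were chosen by a 2-fold gap in these same values, so this separation largely follows from the choice.

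The opposite pattern was rare. As deposited and after sum-scaling, Zm00001d023376 alone was at least 2-fold higher in control leaves than in both other organs, where 9.54% of all gene models were as deposited; with median-ratio scaling Zm00001d037684 was too. Zm00001d023376 stood at 588 RPKM in roots (695 with EBL), 411 in shoots (469) and 1819 in leaves (1825). Its difference between control leaves and control shoots was 2.14 (log2) as deposited, 1.91 sum-scaled and 2.80 with median-ratio scaling. Zm00001d037684 stood at 886 RPKM in roots (617 with EBL), 408 in shoots (415) and 1335 in leaves (1502), and in control shoots it was at least 2-fold below both other organs, as were 3.97% of all gene models. Both lie just above the 400 RPKM threshold in shoots.

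Other members stood out in shoots or in roots, in both treatments. Zm00001d040029 stood at 1584 RPKM in shoots (1631 with EBL), 518 in roots (510.2) and 427 in leaves (644). With Zm00001d035684 it made up the members at least 2-fold higher in shoots than in both other organs, a pattern of 3.36% of all gene models. Zm00001d044747 stood at 1762 RPKM in roots (1878 with EBL), 611 in shoots (764) and 679.9 in leaves (711). Zm00001d021668 stood at 1115 RPKM in roots (1047 with EBL), 479.8 in shoots (445) and 465 in leaves (468). Those were the 2 root-high members as deposited and after sum-scaling, and none was root-high with median-ratio scaling. As deposited 8.85% of all gene models were root-high. Zm00001d049641 had the next highest shoot excess over roots, at 602 RPKM in roots (552 with EBL), 1195 in shoots (1417) and 1050.1 in leaves (909). In the remaining 4 members, Zm00001d017526, Zm00001d019563, Zm00001d027652 and Zm00001d030618, control roots were at least 2-fold above control leaves with shoots in between.

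Ratios between members within a column were examined because multiplying the column by a factor cannot alter them, although quantile normalization can. Of the 528 pairs among the 33, 43 (8.14%) kept their ratio within 1.5-fold over the 6 columns, and the median log2 range of a ratio was 1.62. Pairs of other gene models were not examined, and the 400 RPKM floor limits how far these ratios can vary. The share thus cannot be read as high or low. The most constant pair was Zm00001d010614 and Zm00001d033850, both leaf-low, whose ratio ran from 0.654 to 0.781, a log2 range of 0.26. Zm00001d019563 and Zm00001d027652 came next, with ratios from 0.915 to 1.10. The values of both are close in every column. Zm00001d019563 stood at 2304 RPKM in roots (1613 with EBL), 1473 in shoots (1519) and 1151 in leaves (1464), and Zm00001d027652 at 2483 RPKM in roots (1620.0 with EBL), 1335 in shoots (1406) and 1141 in leaves (1599.9). These pairs are the extremes of many compared, with 6 values each, and were picked out after their values were seen.

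The second set of comparisons set EBL against control within each organ. In roots the members lay mostly close to control, with a lower tail. As deposited 16 members were higher in EBL and 17 lower, with a median log2 difference of -0.020, and after sum-scaling 17 were higher, with a median of 0.0020. Of all gene models 58.8% were higher as deposited and 62.2% sum-scaled, with medians of 0.05 and 0.07. The highest value was 0.24, for Zm00001d023376, followed by 0.23 for Zm00001d007011.

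At the 2-fold limit 1 of 33 members was lower in EBL roots and 0 were higher, where 1.61% and 0.602% of all 25741 gene models compared passed. At 1.5-fold 2 members (6.06%) were lower and 0 higher, against 4.11% and 2.90%. With median-ratio scaling 4 were lower and 0 higher (4.48% and 1.92% of all gene models), and with quantile normalization 4 were lower and 1 higher (4.41% and 2.55%). The member past 2-fold was Zm00001d035684, whose 2223 RPKM with EBL were 0.370 of its control level of 6011 RPKM. Its log2 difference was -1.44 as deposited, -1.41 sum-scaled and -1.50 with median-ratio scaling. Its share of the root gene model RPKM was 0.669% in control and 0.251% with EBL. The other past 1.5-fold as deposited was Zm00001d027652, at -0.62.

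In all, 7 members lay 1.2-fold or more below control in EBL roots, both as deposited and sum-scaled, where 12.4% and 11.7% of all gene models were. The 7th stood at -0.33 and the next member at -0.22, a step no larger than some within the group. After Zm00001d035684 and Zm00001d027652 they were Zm00001d002690 at -0.56, Zm00001d037684 at -0.52, Zm00001d019563 at -0.51, Zm00001d017526 at -0.39 and Zm00001d003157 at -0.33. The 1.2-fold limit and this group were taken after the values were seen. Zm00001d017526, not named by the rule for named genes, stood at 1547 RPKM in roots (1184 with EBL), 924 in shoots (943) and 641 in leaves (974). In shoots the same 7 lay between -0.07 and 0.07 as deposited, and between -0.18 and -0.04 after sum-scaling, all below control. In leaves 5 of them were higher in EBL as deposited and 3 after sum-scaling.

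In shoots every member lay within 1.5-fold of control, as deposited and after sum-scaling. As deposited 26 were higher in EBL and 7 lower, with a median of 0.12 and values from -0.16 to 0.39, and sum-scaling brought the median to 0.0043, with 17 higher and 16 lower. Of all gene models 53.7% were higher as deposited and 35.4% sum-scaled, with medians of 0.018 and -0.07. For the 1533 gene models with a mean of at least 100 RPKM in the shoot columns it was 0.16 as deposited, above that of the members.

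None of the 33 passed 1.5-fold or 2-fold in shoots in either direction. Among all gene models compared, 1.32% passed 1.5-fold upward and 1.89% downward, and 0.129% and 0.434% passed 2-fold. The highest members were Zm00001d012675, with 959.5 RPKM in control against 1261 with EBL (a log2 difference of 0.39), and Zm00001d031168, with 1525 against 1985 (0.38). The lowest were Zm00001d015327, with 549 against 493 RPKM (-0.16), and Zm00001d053838, with 656 against 591 (-0.15). Zm00001d035684 stood at -0.06 in shoots, where it is most abundant.

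In leaves the members were mostly higher in EBL as deposited, and evenly split after sum-scaling. As deposited 26 of 33 were higher and 7 lower, with a median of 0.29 and values from -0.34 to 0.84. After sum-scaling 15 were higher and 18 lower, with a median of -0.031 and values from -0.66 to 0.52. Of all gene models 48.2% were higher as deposited and 29.5% sum-scaled. Sum-scaling moved the median of all gene models in leaves by -0.21, from -0.015 to -0.23, so that the members stood 0.30 above that median as deposited and 0.20 above it after sum-scaling. For the 1488 gene models with a mean of at least 100 RPKM in the leaf columns, the median was 0.29 as deposited and -0.025 sum-scaled. Median-ratio scaling, for comparison, gave the members medians of -0.09 in roots, 0.10 in shoots and 0.34 in leaves.

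At 1.5-fold 6 members (18.2%) were higher in EBL leaves and 0 lower as deposited, where 13.4% and 6.08% of all 25458 gene models compared passed, and none passed 2-fold, against 4.83% and 0.947%. After sum-scaling 0 members passed 1.5-fold upward and 2 downward, against 6.89% and 19.6%. Among the 1488 gene models with a mean of at least 100 RPKM in these columns, 28.6% passed upward and 4.44% downward as deposited. After sum-scaling 12.0% of those passed upward and 14.8% downward. Members were thus less often higher than gene models of this level. The 6 higher members as deposited were Zm00001d044664 (0.84), Zm00001d013367 (0.79), Zm00001d033850 (0.74), Zm00001d007011 (0.72), Zm00001d017526 (0.60) and Zm00001d040029 (0.59). Beyond the first 2, they were listed after their values were seen. Zm00001d044664 stood at 1122 RPKM in roots (963 with EBL), 1109 in shoots (1409) and 452 in leaves (809). Of these 6, Zm00001d044664, Zm00001d013367 and Zm00001d033850 belong to the leaf-low pattern, which was defined with the same control leaf values and so shares them with this comparison.

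The lowest members in leaves were Zm00001d035684, with 3061 RPKM in control against 2417 with EBL, and Zm00001d035156, with 1189 against 954. Their log2 differences were -0.34 and -0.32 as deposited and -0.66 and -0.64 after sum-scaling, and these were the 2 members past 1.5-fold downward there. In roots Zm00001d035156 stood at 1352 RPKM (1291 with EBL) and in shoots at 1558 (1712).

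**Figure D4:**
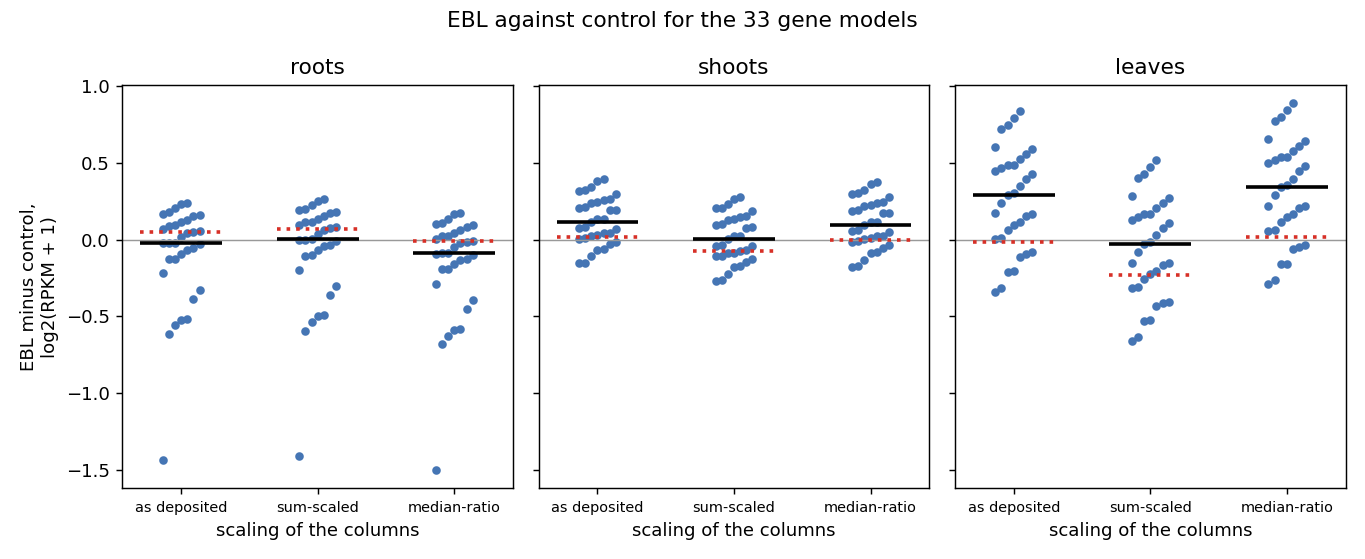
EBL minus control, in log2(RPKM + 1), for each of the 33 gene models in roots, shoots and leaves under 3 scalings; black bars are the median of the 33 and dotted red bars the median of all gene models compared. In leaves the median moves from 0.29 as deposited to -0.031 after sum-scaling and 0.34 with median-ratio scaling, while in roots Zm00001d035684 stays apart at -1.44 and -1.41.

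Both the members and the whole table were more spread in leaves than elsewhere. The interquartile range of the EBL differences as deposited was 0.24 for the members in roots and also in shoots, and 0.48 in leaves, against 0.29, 0.27 and 0.56 for all gene models. Other gene models at 400 RPKM or more in both columns of the organ had interquartile ranges of 0.22 among 291 for roots, 0.20 among 276 for shoots and 0.62 among 245 for leaves, around medians of 0.04, 0.24 and 0.40.

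Set side by side across organs, 12 members were higher in EBL in all 3 organs and 1, Zm00001d035684, was lower in all 3 as deposited, where 21.2% and 14.6% of all gene models were. After sum-scaling 5 were higher in all 3 and 6 lower, Zm00001d035684 among them, against 10.7% and 20.7%. A difference under 1.5-fold in every organ was found for 25 members as deposited and 30 after sum-scaling, against 75.4% and 67.6% of all gene models. A difference under 1.2-fold in every organ was found for 9 members as deposited and 11 after sum-scaling, against 31.3% and 21.0% of all gene models. The members on both of these lists were Zm00001d001913, Zm00001d022042 and Zm00001d022134, picked out after their values were seen. The member-by-member difference between the EBL effect in leaves and that in roots had a median of 0.29 as deposited and -0.06 after sum-scaling. Over all gene models compared, its medians were -0.07 and -0.31, below those of the members under both. The difference reached 1 (log2) in size for 3 members as deposited and 0 after sum-scaling, against 7.80% and 6.95% of all gene models. Between shoots and roots it reached 1 for 1 member under both, with a highest value of 1.37 as deposited, against 3.08% and 3.30% of all gene models. None of these differences could be tested.

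Across the 33 members, which share libraries and are not independent, Spearman's correlation of the EBL differences as deposited was 0.15 for roots with shoots, 0.28 for roots with leaves and -0.04 for shoots with leaves, given as a description.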

How the data were processed

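PolyA libraries were made from total RNA with a stranded kit, per the labels' protocols. The table deposited by the authors holds RPKM values, with a single column for each group, per the file headers. No source used here gives the way in which the 3 replicates were combined or the columns normalized beyond the unit. The submitters' processing notes name CASAVA 1.8, Trimmomatic 0.33, TopHat2 2.0.13, Cufflinks 2.2.1 and the build B73 RefGen_v4, without roles. The reference gene table (Zm-B73-REFERENCE-NAM-5.0) paired 0 of 43484 gene models with a name, so functional and marker lists had 0 matched members, and no sequence or coordinate is given.

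Members were the Zm00001d identifiers with at least 400 RPKM in all 6 columns. All gene models were compared where at least 1 column reached 1 RPKM and both columns compared were above 0. Differences are log2 ratios after adding a pseudocount of 1. For sum-scaling, each column was multiplied to bring its gene model sum to the mean of the 6 sums. No test was run. Alternatives were pseudocounts of 0.1 and 2, median-ratio and quantile scaling, and thresholds of 200 and 800 RPKM. On simulated data, the recovery of known fold changes was checked with median-ratio scaling. The median of unchanged gene models was checked as deposited and with median-ratio scaling. Sum-scaling was checked only for equal column sums, and quantile normalization was not checked. Named gene models were the 10 with the highest geometric mean, the 2 furthest in each direction per comparison, the 2 with the least and the 2 with the greatest range, and the 2 on each side of the threshold. The members and lists were chosen with earlier results of these data known. Computations used Python 3.11.15, numpy 2.4.6, pandas 2.3.3 and matplotlib 3.10.9.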

Additional observations from a re-analysis of the deposited data

Results flagged for a closer look

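Outside the gene models, 7 of 1448 ENSRNA features (non-coding RNA identifiers) and none of the GRMZM5G or miRNA features also stood at 400 RPKM or more in all 6 columns. They are listed here because the comparisons above do not use them. As deposited, 11 of their 21 EBL values (7 features in 3 organs) also exceeded control by at least 1.5-fold. Among all ENSRNA features compared, that fold was reached in roots by 30.8% (of 341 compared), in shoots by 21.4% (of 359) and in leaves by 36.7% (of 324). The summed RPKM of all features other than the gene models, these 7 included, was higher with EBL. It stood at 53934 in roots (77469 with EBL), 78054 in shoots (100839) and 277567 in leaves (342732). The 7 features make up most of each of these sums, so the higher sums are not a separate observation. In roots, log2 differences of this size were 0.97 for ENSRNA049478392, 0.79 for ENSRNA049455955, 0.76 for ENSRNA049478226, 0.69 for ENSRNA049478207, 0.66 for ENSRNA049478221 and 0.65 for ENSRNA049478156. In shoots they were 0.77 for ENSRNA049457201 and 0.62 for ENSRNA049455955. In leaves they were 1.56 for ENSRNA049478392, 0.72 for ENSRNA049478221 and 0.62 for ENSRNA049455955. ENSRNA049457201 was the exception in roots, with 684 RPKM in control against 512 with EBL (-0.42), and reached 127327 RPKM in control leaves (148473 with EBL). ENSRNA049478226, the highest of the 7 in roots, stood there at 14196 RPKM (23969.5 with EBL). All these values are as deposited, and sum-scaling was not applied to these features. Its factors were 0.965 for control leaves and 0.773 for EBL leaves, and 1.13 and 1.05 for shoots. For roots they were 1.08 and 1.10. Sum-scaling would thus lower the leaf and shoot differences. None of these differences has a replicate or was tested.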

How the results depend on the processing

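No paired analysis was possible because the table holds 1 value per group, and for the same reason no replicate was left out. No outcome changed by 0.1 (log2) or 10 percentage points, the limits used here for a move, with pseudocounts of 0.1 or 2. A threshold of 200 RPKM gave 142 members and one of 800 RPKM gave 12; after sum-scaling 31 passed 400 RPKM, and 39 passed in the control columns alone.

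Sum-scaling gave median EBL differences of 0.0043 in shoots and -0.031 in leaves; the leaf median minus the root median was -0.033, leaves minus shoots -0.035 and shoots minus roots 0.0023 (0.31, 0.17 and 0.14 as deposited). It gave leaf medians of -0.87 against roots and -0.49 against shoots in control and -0.79 and -0.55 in EBL (-0.28 and -0.11 as deposited), 6.06% of members past 1.5-fold in leaves (18.2% as deposited), 18.2% at least 4-fold apart between leaves and roots (3.03% as deposited) and -0.23 for all gene models in leaves. Members rechosen after sum-scaling gave -0.032 in shoots and -0.017 in leaves, -0.016, 0.015 and -0.031 for the organ differences of these medians in the order above, -0.70 for leaves against roots with EBL, -0.48 and -0.49 for leaves against shoots in control and EBL, and 19.4% at least 4-fold apart between leaves and roots.

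Median-ratio scaling reversed leaves against roots in control (0.062) and gave 0.60 with EBL. It gave 0.40 and 0.63 for leaves against shoots, -0.29 and -0.023 for shoots against roots, and 0.43 for the EBL medians of leaves minus roots. With it 27.3% of members were at least 2-fold apart between leaves and roots (45.5% as deposited). Among all gene models compared with that scaling, 19.2% were at least 2-fold lower in leaves than in roots and 23.1% higher. Quantile normalization gave median EBL differences of 0.13 for roots, -0.036 for shoots and -0.077 for leaves, which differed by -0.21 for leaves minus roots, -0.041 for leaves minus shoots and -0.17 for shoots minus roots, and organ medians of -1.79 and -1.69 for leaves against roots, -1.36 and -1.40 for leaves against shoots and, with EBL, -0.44 for shoots against roots. By it 3.03% of members passed 1.5-fold in leaves. At least 2-fold and 4-fold apart were 75.8% and 39.4% between leaves and roots, and 72.7% and 30.3% between leaves and shoots. Of all gene models compared under it, 11.4% passed 1.5-fold upward and 7.34% downward in leaves. At 2-fold 23.9% were lower and 21.1% higher in leaves than in roots, and at 4-fold 8.73% and 11.3%. Against shoots 20.04% were lower and 20.5% higher in leaves at 2-fold, and 6.6% and 7.95% at 4-fold.

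Members at 200 RPKM or more gave -0.99 and -0.69 for leaves against roots in control and EBL, -0.53 and -0.56 for leaves against shoots, -0.27 for shoots against roots in control, and 13.4% at least 4-fold apart between leaves and roots. Members at 800 RPKM or more gave -0.55 and -0.089 for leaves against roots, 0.0013 for leaves against shoots with EBL, 16.7% past 1.5-fold in roots, and 16.7% and 8.33% at least 2-fold apart between leaves and roots and between leaves and shoots. For all gene models, a mean of at least 100 RPKM gave medians of 0.16 in shoots and 0.29 in leaves with 33.1% past 1.5-fold in leaves, and the other gene models at 400 RPKM or more, a comparison chosen after seeing the data, gave 0.24, 0.40 and 36.7%. The organ patterns under other scalings, the EBL columns compared between organs and the shares without Zm00001d035684 were also chosen after seeing the data. Quantile normalization put 20 members in the leaf-low pattern and 5 within 2-fold throughout. The share of all gene models in these patterns was not computed under it. Its values depend only on rank within a column, so these counts are not separate from the ranks given above. Besides these, 179 summary values stayed within the limits. Among single gene models and organ patterns 161 were counted as unchanged and 16 moved. A further 8 passed a fold limit that they had missed and 14 missed one that they had passed. A single gene model that stayed past its fold limit was counted as unchanged, also where its value changed by more than 0.1 (log2). For Zm00001d033850, leaves against roots in control was -2.02 as deposited, -1.25 with median-ratio scaling and -3.06 with quantile normalization. The cause of these moves was not tested. Depth is unknown, so the smallest detectable difference is too.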

Other observations

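The 23 gene models that missed the threshold in 1 column were mostly short of it in leaves. The 17 short in control leaves stood there at a median of 357 RPKM, from 206 to 392, and the 3 short in EBL leaves at a median of 358 RPKM. Of the other 3, 2 were short in EBL roots, at 347 and 373 RPKM, and 1 in control roots, at 333 RPKM, and none was short in a shoot column.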
